A study of Mus musculus with 284 samples.

Results

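The immediate-early-high and immediate-early-low cells are the upper and lower ends of an activation state among tumour propagating cells of mouse skin tumours. Each cell received a score, the mean of log2(CPM + 1), where CPM is a gene's count scaled to a common library total, over Fos, Fosb, Jun, Junb, Egr1, Atf3, Ier2 and Dusp1. Within each mouse the top 25% of cells were called high and the bottom 25% low. This chose 140 of the 284 cells, 70 high and 70 low. There were 18 of each in mouse KO1 (73 cells), 13 of each in KO3 (54 cells), 17 of each in WT1 (69 cells) and 22 of each in WT2 (88 cells). The cells were thus selected on their measured levels of the 8 score genes, which are described without a test. Levels of all other genes did not enter the score, though the score and the gene lists were chosen with earlier results of these data known. The mouse was taken as the replicate (n = 4 pairs).

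The series profiled tumour propagating cells, which can seed a tumour anew when transplanted, by Smart-seq2, a full-length RNA-seq method run on 1 sorted cell per well. KO1 and KO3 carry the genotype label Sirt6-/- and WT1 and WT2 the label wild type, all on the C57BL/6 strain; SIRT6 is a chromatin-bound histone deacetylase. All 4 mice received the carcinogen DMBA once at 8 weeks of age and then repeated doses of TPA, a tumour promoter, over more than 20 weeks. Tumours were cut up and digested with trypsin, and living cells stained for CD34 and CD49f were sorted on a YFP reporter switched on by Cre under the keratin 14 promoter, which limits them to the keratin 14 lineage. How many tumours each mouse gave is not stated. No undigested control was analysed here, so activation in the tumour and activation during handling cannot be told apart.

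Immediate-early genes are switched on within minutes of a growth factor, stress or wound signal, by transcription factors already present in the cell. FOS, FOSB, JUN and JUNB are subunits of the AP-1 transcription factor, EGR1 and ATF3 are further DNA-binding factors, IER2 is a small nuclear protein, and DUSP1 is a phosphatase that switches MAP kinases off again. Dissociation of solid tissue by enzymes is known to induce these genes, and in skin AP-1 also mediates the response to TPA.

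Promoters of some score genes and of genes that followed them are shown to make shared letters visible. RefSeq's promoter table (GRCm38.p6, 250 bases before to 50 after each start) was matched by symbol to Fos, Fosb, Jun, Junb, Atf3 and Dusp1, 6 of the 8 score genes, the others being Egr1 and Ier2, and to 31 of 47 early response genes that lay higher in the high cells of all 4 mice. The core of the cAMP response element, TGACGT on either strand, was in 3 of these 6 promoters (50.0%). It was in 11 of the 31 early response genes (35.5%) and in 2263 of all 27025 genes in the table (8.37%). The full palindrome TGACGTCA, which contains that core, was in Dusp1 alone of the 6, in Btg2, Plk2, Ppp1r15a and Ccnl1 of the 31, and in 2.03% of all genes. The AP-1 letters TGANTCA, searched on both strands, were in 0 of the 6, in 3 of the 31 (9.68%) and in 8.97% of all genes. N stands for any base, a loose form of the motif that also counts TGAATCA, the match in Sprr1b. Of the 12 genes with the largest positive differences they were in 4 of the 9 promoters matched, those of Tnfaip3, Gm12216, Klf9 and Csrnp1 (44.4%). Suprabasal genes that lay lower in all 4 mice held them in 3 of the 8 promoters matched, those of Krtdap, Sbsn and Sprr1b (37.5%). Other motifs were searched as well, and the cAMP response element was not the only one with a larger share in the 31 early response genes than in all genes. TATAAA, searched on the gene's strand, was in 29.03% of the 31 and 9.77% of all genes. The NF-kB motif was in 19.4% of the 31 and 5.14% of all genes, and the EGR letters GCGGGGGCG in 16.1% of the 31 and 3.31% of all genes. The CArG box was in 6.45% of the 31 and 1.81% of all genes, and the heat shock letters TTCNNGAA in 12.9% of the 31 and 9.60% of all genes. Of the 6 score gene promoters, TATAAA was in 2 (33.3%), the NF-kB motif in 2 (33.3%) and the EGR letters in 1 (16.7%). The CArG box and the heat shock letters were in 0 of the 6. Letters further than 250 bases before the start, and those of Egr1 and Ier2, were not searched, so these genes may hold such motifs elsewhere. These are matches of letters in a window, and no binding was measured. The 200 bases before the start are printed for Fos (chr12:85473690-85473889, plus strand), Atf3 (chr1:191183334-191183533, minus strand), Dusp1 (chr17:26508473-26508672, minus strand), Zfp36 (chr7:28379229-28379428, minus strand) and Sprr1b (chr3:92438780-92438979, minus strand), each read along its gene. Capitals mark the TGACGT core in either orientation, and the full palindrome where it occurs, in Fos, Atf3 and Dusp1, a serum response factor CArG box in Zfp36 and the AP-1 letters in Sprr1b.
Fos: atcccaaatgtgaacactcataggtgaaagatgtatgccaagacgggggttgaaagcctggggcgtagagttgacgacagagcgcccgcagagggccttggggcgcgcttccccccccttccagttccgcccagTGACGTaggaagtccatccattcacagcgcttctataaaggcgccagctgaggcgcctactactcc
Atf3: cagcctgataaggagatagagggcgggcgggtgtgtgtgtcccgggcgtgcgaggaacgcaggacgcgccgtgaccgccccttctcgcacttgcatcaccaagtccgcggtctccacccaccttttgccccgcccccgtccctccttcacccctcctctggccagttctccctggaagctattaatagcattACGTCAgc
Dusp1: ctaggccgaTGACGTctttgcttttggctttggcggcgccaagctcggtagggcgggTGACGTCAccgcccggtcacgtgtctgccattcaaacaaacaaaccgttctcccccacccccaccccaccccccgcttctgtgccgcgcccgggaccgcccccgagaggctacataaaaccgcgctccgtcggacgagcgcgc
Zfp36: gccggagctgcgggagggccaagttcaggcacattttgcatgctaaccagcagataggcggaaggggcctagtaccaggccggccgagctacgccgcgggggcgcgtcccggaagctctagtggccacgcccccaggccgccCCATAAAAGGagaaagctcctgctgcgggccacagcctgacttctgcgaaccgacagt
Sprr1b: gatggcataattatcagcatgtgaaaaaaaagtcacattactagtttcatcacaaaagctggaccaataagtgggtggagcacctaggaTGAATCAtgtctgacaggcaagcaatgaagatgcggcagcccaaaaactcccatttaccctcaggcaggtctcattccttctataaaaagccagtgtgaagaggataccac
With the first base of the transcript as position 0, the marked letters began at -66 in Fos, at -8 in Atf3, at -191 and -143 in Dusp1, at -58 in Zfp36 and at -111 in Sprr1b.

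By their transcripts, high and low cells both carried keratinocyte markers. The basal keratin genes Krt14 and Krt5 were detected in 100.0% of high and of low cells in each mouse. Cd34, a gene of the sorting gate, was detected in 50.0% to 82.4% of high and 53.9% to 82.4% of low cells by mouse. Of 9 fibroblast markers at most 2 had a count in the high cells of a mouse and at most 2 in its low cells, with summed levels of 0 to 17.8 CPM in high and 0 to 18.7 CPM in low cells. Col1a2, Col3a1, Dcn, Lum and Pdgfrb were at 0 in both states, and Vim had the most counts, 527 in high and 416 in low cells. Summed levels of 7 endothelial markers were 0.38 to 13.1 CPM in high and 2.68 to 10.5 CPM in low cells, with Kdr, Tek, Emcn and Cldn5 at 0. Pecam1 had 245 counts in high and 131 in low cells, and Egfl7 255 and 395. Summed levels of 13 immune markers were 5.26 to 44.6 CPM in high and 15.3 to 51.8 CPM in low cells, with Csf1r, Adgre1, Cd3e, Cd207 and H2-Aa at 0. Lyz2 had 350 counts in high and 787 in low cells, and Ptprc 0 and 196. In WT1, H2-Ab1 was detected in 47.1% of high and 41.2% of low cells, and Cd68 in 41.2% and 5.9%. The 6 melanocyte markers summed to at most 6.28 CPM in high and 4.27 CPM in low cells, with Tyr, Tyrp1 and Dct at 0. The 9 muscle and adipocyte markers summed to 0 to 51.2 CPM in high and 0.41 to 81.9 CPM in low cells, where Fabp4 made up the highest sums. Sirt6 itself lay at 26.97 and 14.5 CPM over all cells of KO1 and KO3, and at 16.7 and 25.2 CPM in WT1 and WT2, so its transcript did not separate the genotype labels. Gene counts do not show whether these reads lie outside the deleted part of the gene, so the values do not check the labels, and genotypes are given as labelled. Total counts per cell lay between 523999 and 1684464.

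The score separated the states by construction. High cells had median scores of 10.51 in KO1, 10.49 in KO3, 10.64 in WT1 and 11.51 in WT2, against 6.64 in KO1, 5.88 in KO3, 6.90 in WT1 and 9.67 in WT2 for the low cells. WT2 stood apart. Its low cells scored from 7.77 to 10.15, a range that reaches the high cells of the other mice, which began at 10.07 in KO1, 9.90 in KO3 and 10.05 in WT1. High and low are therefore positions within a mouse and not a level shared by the mice. The borders were narrow, with 10.07 and 10.05 for the lowest high cell and the next below it in KO1, 9.90 and 9.71 in KO3, 10.05 and 10.02 in WT1, and 11.25 and 11.22 in WT2. At the lower border the highest low cell and the next above it scored 7.71 and 7.86 in KO1, 7.61 and 7.92 in KO3, 7.83 and 7.89 in WT1, and 10.15 and 10.23 in WT2. Over all cells the median score was 9.13 ± 0.06 in the mice labelled Sirt6-/- and 10.01 ± 1.18 in those labelled wild type (SD over mouse medians, n = 2 each). The exact permutation test gave p = 0.333, the smallest that 2 against 2 mice allow. Cells labelled Sirt6-/- lay on plates 1 and 2 and those labelled wild type on plates 3 and 4, and the effects of plate and genotype cannot be told apart.

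**Figure D1:**
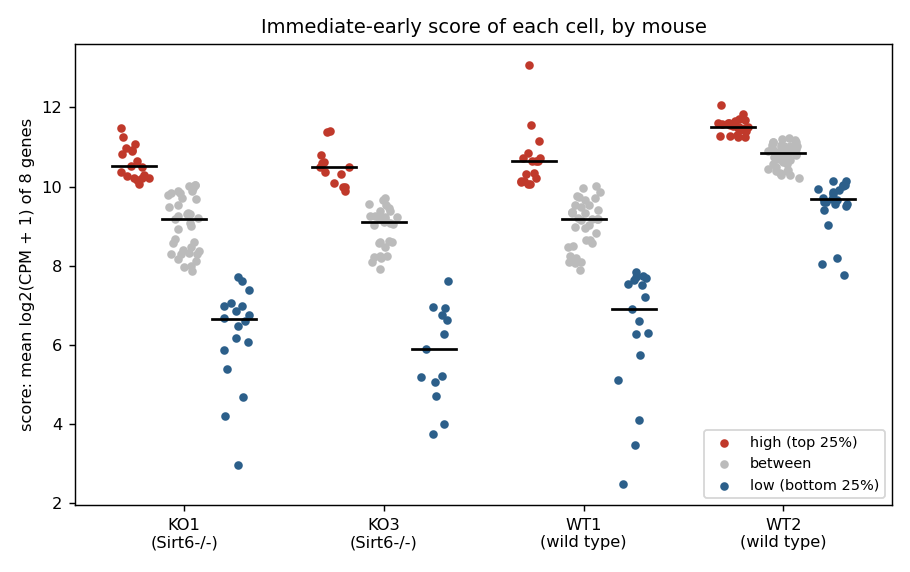
Score of each of the 284 cells (vertical axis, mean log2(CPM + 1) of the 8 score genes) by mouse; red points are high cells, grey points the cells between, blue points low cells, and bars mark medians. The low cells of WT2 (median 9.67) lie close to the cells between of the other mice, whose low cells have medians of 5.88 to 6.90.

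Fos, encoding a subunit of AP-1, had 5747, 6294, 6454 and 8407 CPM in the summed high cells of KO1, KO3, WT1 and WT2, against 540.0, 555, 1085 and 2972 CPM in the low cells of the same mice in that order. CPM here and below is of the summed cells, scaled with edgeR's trimmed mean of M values (TMM) and not per length, and per-mouse values keep this order of mice. Atf3, a stress-induced factor of the CREB family, had 1175, 1112, 1166 and 2219.6 CPM in the high cells, against 12.9, 58.7, 25.6 and 565 CPM in the low cells. It had a count in 100.0% of the high cells of every mouse, against 27.8%, 38.5%, 35.3% and 90.9% of the low cells. Fosb had 488, 449, 611 and 998 CPM in the high cells, against 27.9, 20.3, 21.96 and 332 CPM in the low cells. Dusp1, the MAP kinase phosphatase, had 3434, 4499, 3442 and 6483 CPM in the high cells, against 413, 246, 472 and 1790.5 CPM in the low cells. For each of the 8 genes all high sums lay above all low sums, and WT2 had the highest low sum. Cells of 1 mouse ranked in part alike by different score genes. The median of the 28 pairwise Spearman correlations was 0.58 over 73 cells of KO1 and 0.62 over 54 of KO3. It was 0.65 over 69 cells of WT1 and 0.50 over 88 of WT2. Single pairs ran from 0.44 to 0.77 in KO1, 0.29 to 0.78 in KO3, 0.39 to 0.80 in WT1 and 0.19 to 0.69 in WT2. These values describe cells that share plates and depth. Splitting the cells on the other 7 genes gave a log2 difference of 2.60 for Fos (2.76 with the gene in the score), 3.31 for Fosb (3.81), 2.10 for Jun (2.28) and 1.68 for Junb (1.77). For the other members it gave 2.27 for Egr1 (2.46), 3.48 for Atf3 (4.62), 1.81 for Ier2 (1.98) and 2.84 for Dusp1 (2.99).

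High cells had fewer detected genes than low cells in all 4 mice. The medians were 6037.5, 6610.0, 6330.0 and 5178.5 detected genes in high cells, against 6592, 6681, 7009 and 6104 in low cells. The mean difference over mice was -557.5 ± 359 genes (SD, n = 4; exact sign-flip permutation test, two-sided, p = 0.125, the smallest that 4 differences allow), and -548 genes after thinning each cell to 500000 counts. The single cells of both states overlapped in every mouse. Mitochondrially encoded mRNAs took a median of 2.18%, 2.19%, 1.25% and 1.71% of counts in high cells, against 1.73%, 1.37%, 1.18% and 1.46% in low cells (same exact test, p = 0.125). Total counts showed no common direction (exact p = 0.625). Rows A to D of the plates gave 13 high and 5 low cells of WT1 but 4 high and 8 low cells of KO3, and rows E to H gave 4 high and 12 low cells of WT1 and 9 high and 5 low cells of KO3. The part of plate position in the gene differences was not tested.

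**Figure D2:**
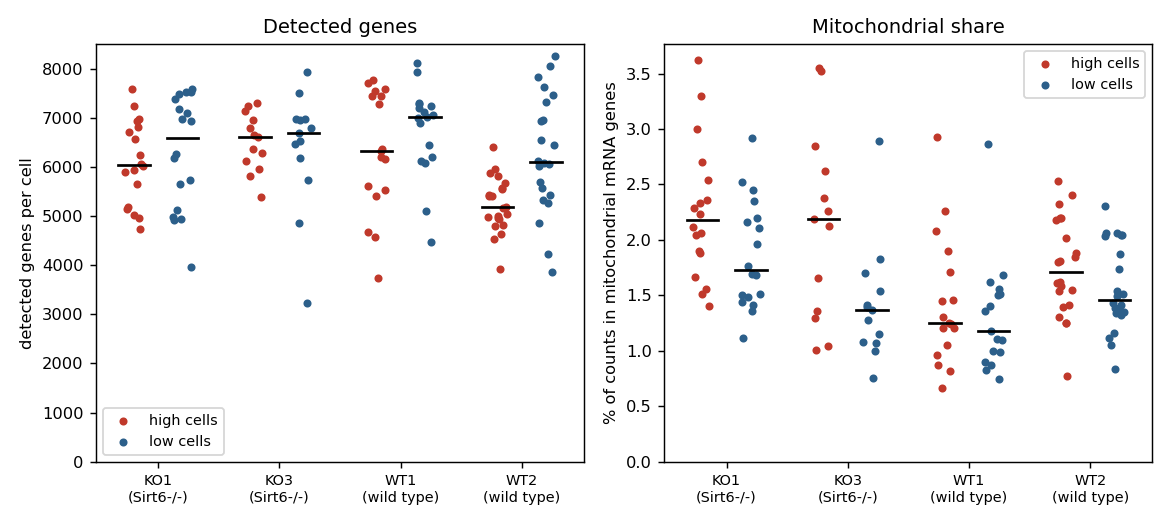
Detected genes per cell (left) and percent of counts in the 13 mitochondrially encoded mRNA genes (right) for high (red) and low (blue) cells of each mouse; bars mark medians. In every mouse the high cells have the lower median number of detected genes and the higher median mitochondrial share, and the cells overlap.

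To ask which genes beyond the score follow the state, the counts of high cells and of low cells were summed per mouse and 12545 genes were compared with the mouse as a block. edgeR's quasi-likelihood test called 0 genes at an adjusted p under 0.05 (0%), with 872 genes at an unadjusted p under 0.05 and a smallest adjusted p of 0.152. DESeq2 on the same sums called 290 genes higher (2.31%) and 184 lower (1.47%), and 399 of these 474 had the same direction in all 4 mice. limma on the mean log2(CPM + 1) per cell called 37 genes (0.295%), 26 higher and 11 lower, of which 35 were among the calls of DESeq2. The number called thus depends on the test, and genes are given here by their values in each mouse. Of all tested genes 8.96% lay higher in the high cells of all 4 mice and 9.08% lower. These shares, and the 2.31% and 1.47% called by DESeq2, are the background for the list counts below. All 4 high sums lay above all 4 low sums for 2.08% and below them for 1.24%. A higher sum can hold more cells with the transcript or more transcript per cell, which a sum cannot tell apart. Nothing in the labels says that the 4 mice were handled on separate days, so the p-values measure the spread between these mice only.

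Early transcription factors outside the score, a list written with earlier results of these data known, lay higher in the high cells. Of 30 tested, 22 lay higher in all 4 mice and 0 lower, beside 8.96% and 9.08% of all genes, and all 30 had a positive log2 difference, with a median of 1.41 against -0.03 for all tested genes. edgeR called 0 of the 30 and DESeq2 called 17, all higher. Klf6, a zinc finger factor known from wounding, had 1327, 853, 870.4 and 1429.6 CPM in the high cells, against 152, 152, 151 and 716 CPM in the low cells. The 4 high sums lay above the 4 low sums, with a log2 difference of 2.30 ± 0.37 (SE; edgeR adjusted p = 0.316, DESeq2 4.3e-11). Klf4, a regulator of the epidermal barrier, had 107, 269, 124 and 124 CPM in the high cells, against 52.4, 106, 59.7 and 66.02 CPM in the low cells. Its log2 difference of 1.08 ± 0.15 (edgeR adjusted p = 0.29) varied little between mice, from 0.89 to 1.33. Sox9, a factor of hair follicle and tumour stem cells, had 228, 108, 142 and 363 CPM in the high cells, against 74.7, 13.8, 25.99 and 146 CPM in the low cells. Myc, the growth regulator, had 355 to 1005 CPM in high cells, against 192 to 384 CPM in low cells, with a log2 difference of 1.29 ± 0.21 (edgeR adjusted p = 0.316, DESeq2 6.86e-07). Within each mouse high cells exceeded low cells for both genes, while across mice the sums overlapped. The orphan nuclear receptor gene Nr4a1 had 1733, 1096, 1123 and 3076 CPM in the high cells, against 29.7, 59.8, 75.9 and 1338 CPM in the low cells, and the low cells of WT2 exceeded the high cells of KO3 and WT1. Not all members had one direction: Egr2 and Hes1 lay higher in 2 mice and lower in the other 2, and Nr4a2 had a log2 difference of -0.42 in WT2 against 2.88 to 4.24 in the other mice.

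Early response genes that encode no transcription factor held several genes whose states did not overlap. Of 38 tested, 25 lay higher in all 4 mice and 0 lower, beside 8.96% and 9.08% of all genes. Their median log2 difference was 1.39. edgeR called 0 and DESeq2 17, all higher. For 14 of the 38 the high sums lay above all low sums, beside 2.08% of all genes. Zfp36 (chromosome 7, 28376784 to 28380253, minus strand, GRCm38) encodes tristetraprolin, which binds AU-rich elements and speeds the decay of cytokine mRNAs, and its promoter with the CArG box is printed above. It had 889, 967, 797 and 1577 CPM in the high cells, against 105, 109, 97.6 and 514 CPM in the low cells. Its log2 difference was 2.73 ± 0.31 (edgeR adjusted p = 0.283, DESeq2 2.17e-21, limma on cell means 0.0032), with 3.02 to 3.14 in KO1, KO3 and WT1 and 1.62 in WT2. Btg2, an antiproliferative gene, had 2008, 1239, 1359.8 and 3091 CPM in the high cells, against 257, 126, 179 and 1029.7 CPM in the low cells. Its states did not overlap either, and its log2 difference was 2.70 ± 0.31 (edgeR adjusted p = 0.283). Without WT2, edgeR called 2 genes, Zfp36 (log2 difference 3.08, adjusted p = 0.0459) and Btg2 (3.06, adjusted p = 0.0459). Ccn1, a secreted matrix protein gene, had 824, 544, 613 and 1387 CPM in the high cells, against 214, 58.2, 39.7 and 257 CPM in the low cells. Sgk1, a kinase gene induced by serum and glucocorticoid, had 797 to 2049 CPM in high cells, against 198 to 1002 CPM in low cells, with a log2 difference of 1.61 ± 0.21 (edgeR adjusted p = 0.283). Its sums overlapped across mice, and WT2 had the highest level in both states.

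**Figure D3:**
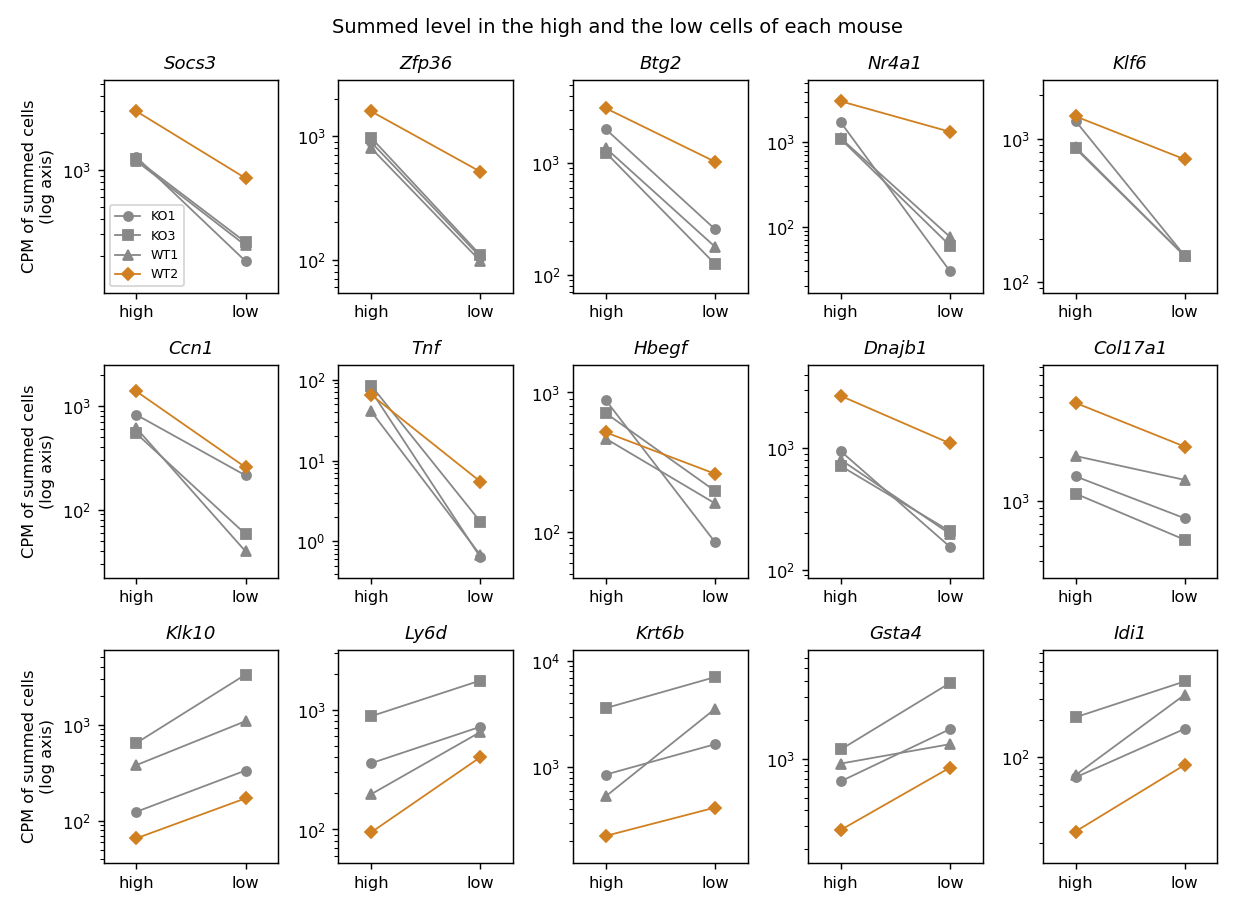
Level of 15 genes (vertical log axis, TMM-scaled CPM of summed cells) in the high and the low cells; each line joins the sums of 1 mouse, with WT2 in orange. All lines of the upper 10 panels slope down from high to low and all lines of the Klk10, Ly6d, Krt6b, Gsta4 and Idi1 panels slope up; Zfp36 lies at 797 to 1577 CPM in high cells and 97.6 to 514 CPM in low cells.

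Feedback inhibitors of signalling lay higher in part. Socs3 (chromosome 11, 117966079 to 117970047, minus strand) encodes a suppressor of cytokine signalling. It had 1272, 1219.9, 1182 and 2991 CPM in the high cells, against 182, 259.6, 244 and 858 CPM in the low cells. The states did not overlap, and its log2 difference was 2.28 ± 0.18, with its lowest value in WT2 and 2.23 to 2.80 in the other mice (edgeR adjusted p = 0.152, DESeq2 1.54e-33, limma on cell means 0.000205). With genes under 10 CPM left out, edgeR called 2 genes, Socs3 (adjusted p = 0.0473) and Nedd9 (log2 difference 2.46, adjusted p = 0.0473), a scaffold gene of integrin signalling. Of 17 tested MAP kinase phosphatases and feedback genes, 6 lay higher in all 4 mice and 0 lower. The shares of all genes were 8.96% and 9.08%. The median log2 difference of the 17 was 0.85. DESeq2 called 5 higher and 0 lower, beside 2.31% and 1.47% of all genes. Dusp6, the phosphatase of ERK, had 862 to 2475 CPM in high cells, against 278 to 1129.6 CPM in low cells, with a log2 difference of 1.14 ± 0.15 (edgeR adjusted p = 0.283). Spry2, an inhibitor of receptor tyrosine kinase signalling, had 105 to 145 CPM in high cells, against 46.2 to 102 CPM in low cells. Its states did not overlap. Dusp4, Dusp5, Dusp14 and Dusp16 differed in direction between mice, and the group was not uniform.

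Ligands of the EGF receptor were split. Hbegf, which encodes heparin-binding EGF, had 877, 709, 465 and 516 CPM in the high cells, against 83.9, 196, 159 and 260.4 CPM in the low cells, with no overlap and a log2 difference of 1.92 ± 0.41 (edgeR adjusted p = 0.471, DESeq2 8.52e-06). Ereg, encoding epiregulin, had 83.7, 178, 52.1 and 6.60 CPM in the high cells, against 4.43, 42.03, 18.1 and 1.41 CPM in the low cells. It lay higher in each mouse, though at 1.41 to 6.60 CPM in WT2. Areg, encoding amphiregulin, lay higher in 3 mice and lower in WT2, where it had 56.5 CPM in high cells and 96.9 CPM in low cells. The receptor gene Egfr had 64.1 to 182 CPM in high cells, against 47.7 to 95.7 CPM in low cells. Of the 9 genes tested, 3 lay higher in all 4 mice and 0 lower, beside 8.96% and 9.08% of all genes. DESeq2 called 2 higher and 0 lower, beside 2.31% and 1.47% of all genes.

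Inflammatory mediators and inhibitors of NF-kB included several of the genes with the largest differences. Of 19 tested, 9 lay higher in all 4 mice and 2 lower, beside 8.96% and 9.08% of all genes. DESeq2 called 9 higher and 2 lower, beside 2.31% and 1.47% of all genes. The median log2 difference of the list was 1.85. The median was 1.98 in KO1, 2.04 in KO3 and 1.86 in WT1, but 0.19 in WT2. On cell means the median of the list was 0.78. Tnf (chromosome 17, 35199381 to 35202007, minus strand), the cytokine gene, had 72.7, 84.6, 40.5 and 65.2 CPM in the high cells, against 0.640, 1.76, 0.680 and 5.50 CPM in the low cells. The states did not overlap, and counts were found in 38.9%, 46.2%, 29.4% and 40.9% of high cells, against 5.6%, 15.4%, 5.9% and 9.1% of low cells. Its log2 difference was 5.44 ± 0.67 (edgeR adjusted p = 0.283, DESeq2 7.08e-17, limma on cell means 0.0269). Tnfaip3, which encodes the NF-kB inhibitor A20, had 282, 224, 107 and 255 CPM in the high cells, against 0.490, 2.17, 2.21 and 122 CPM in the low cells. The chemokine gene Cxcl2 had 33.1, 18.6, 16.8 and 116 CPM in the high cells, against 0.390, 0.120, 1.93 and 33.9 CPM in the low cells. Nfkbia, encoding IkB alpha, had 1707, 2501, 1689 and 1449 CPM in the high cells, against 154, 606, 176 and 1273 CPM in the low cells. Its log2 difference was 0.19 in WT2 against 2.04 to 3.46 in the other mice. Nfkbiz, an atypical inhibitor, had 369 to 667 CPM in high cells, against 31.8 to 326 CPM in low cells, without overlap. Cxcl1 had 75.2 to 662 CPM in high cells, against 47.1 to 84.5 CPM in low cells. Il24 and Il33 were the members that lay lower in all 4 mice, Il24 with a mean of 11.7 CPM and Il33 with a mean of 1.86 CPM over the sums. Summed immune marker genes, without TMM scaling, lay at 5.26 to 44.6 CPM in high and 15.3 to 51.8 CPM in low cells. The range in high cells overlaps that of Tnf. Cd68 had a count in 41.2% of high and 5.9% of low cells of WT1. Whether immune cells contributed to the levels of these mediators was not tested.

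Stress programmes other than the early response were mixed. Of 19 heat shock genes 5 lay higher in all 4 mice and 1 lower, beside 8.96% and 9.08% of all genes. Their median log2 difference was 0.30. DESeq2 called 4 higher and 1 lower, beside 2.31% and 1.47% of all genes. Dnajb1, the HSP40 co-chaperone gene, had 945, 715, 804 and 2696 CPM in the high cells, against 154, 208, 197 and 1097 CPM in the low cells, a log2 difference of 1.93 ± 0.23 (edgeR adjusted p = 0.283, limma on cell means 0.00859). Hspb1, the small heat shock protein, had 1113 to 2185 CPM in high cells, against 338 to 1280.0 CPM in low cells. Hsph1 lay lower in each mouse, with 32.98 to 74.5 CPM in high cells, against 70.4 to 107 CPM in low cells. The abundant chaperone genes Hspa8, Hsp90ab1 and Hsp90aa1 had log2 differences of 0.30, 0.12 and -0.16. Of 21 genes of the unfolded protein and integrated stress response 3 lay higher and 0 lower in all 4 mice, beside the same shares. Their median was -0.03, and DESeq2 called 2 higher. Ddit4, an inhibitor of mTORC1, was among them, with 40.4 to 65.03 CPM in high cells, against 7.58 to 36.9 CPM in low cells and no overlap. Of 16 p53 targets 2 lay higher and 2 lower in all 4 mice, beside the same shares, and DESeq2 called 0. Among 24 NRF2 and antioxidant genes 3 lay higher and 6 lower, beside the same shares, and DESeq2 called 1 higher and 5 lower. Gsta4, a glutathione transferase gene, had 669, 1179, 918 and 281 CPM in the high cells, against 1694, 3861, 1297 and 853 CPM in the low cells. Its log2 difference was -1.29 ± 0.22 (edgeR adjusted p = 0.372, DESeq2 3.6e-07). Gpx2, a glutathione peroxidase gene, had 71.9 to 776 CPM in high cells, against 199 to 1849.6 CPM in low cells. Sqstm1, the autophagy adaptor p62, went the other way without overlap, with 230.3 to 393 CPM in high cells, against 135 to 214 CPM in low cells.

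Genes of the differentiating, suprabasal epidermis lay lower in the high cells. All 19 tested members had a negative log2 difference, with a median of -1.45, and 10 lay lower in all 4 mice and 0 higher, beside 9.08% and 8.96% of all genes. edgeR called 0 and DESeq2 9, all lower. Klk10 (chromosome 7, 43781035 to 43785410, plus strand), a secreted protease of the upper epidermis, had 125, 645, 380.4 and 66.1 CPM in the high cells, against 334, 3313, 1087 and 172 CPM in the low cells. Each mouse showed the difference while the mice differed among themselves, and its log2 difference was -1.67 ± 0.20 (edgeR adjusted p = 0.283, DESeq2 3.24e-13, limma on cell means 0.0269). Ly6d, a surface protein of differentiating keratinocytes, had 358, 885, 197 and 94.6 CPM in the high cells, against 722, 1757, 652 and 402 CPM in the low cells. The fraction of cells with a Ly6d count was 61.1%, 76.9%, 41.2% and 40.9% of high cells, against 77.8%, 100.0%, 88.2% and 72.7% of low cells. Tgm3, a cross-linking enzyme of the cornified envelope, had 0.360, 17.1, 0 and 0 CPM in the high cells, against 90.01, 374, 34.5 and 5.89 CPM in the low cells. Few cells carried it: Tgm3 had a count in 11.1%, 15.4%, 0% and 0% of high cells, against 16.7%, 46.2%, 23.5% and 4.5% of low cells. The log2 difference of Tgm3 was -6.89 on the sums and -1.60 on cell means (limma adjusted p = 0.212). Sprr1b, whose promoter holds the AP-1 letters, had 47.1, 229, 5.91 and 0 CPM in the high cells, against 176, 813, 159 and 36.9 CPM in the low cells. It lay lower within each mouse, and KO3 had the highest level in both states. The early suprabasal keratins did not share this pattern: Krt1 and Krt10 had log2 differences of -0.07 and -0.42 in the fit, with Krt1 lower in KO1 and WT2 and higher in KO3 and WT1, and Krt10 lower in WT1 and WT2 and higher in KO1 and KO3. Without the 25% of cells highest in these genes the median of the list was -0.61. That filter used the same list, so this value cannot test the difference. With the score freed of its trends on depth and detected genes the median was -1.16.

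Basal and wound keratinocyte genes differed less. Of 19 basal and hemidesmosome genes 4 lay higher in all 4 mice and 2 lower, beside 8.96% and 9.08% of all genes. DESeq2 called 4 higher and 1 lower, beside 2.31% and 1.47% of all genes. Their median log2 difference was 0.27, with 0.17 in KO1, -0.02 in KO3, 0.18 in WT1 and 0.51 in WT2. The median was 0.14 without the 25% of cells highest in suprabasal genes, and 0.12 with the score freed of its trends on depth and detected genes. Col17a1, the hemidesmosomal collagen that anchors basal cells, had 1472, 1127, 2016 and 4580.2 CPM in the high cells, against 769.7, 552, 1393 and 2331 CPM in the low cells. Its log2 difference was 0.87 ± 0.12, from 0.53 to 1.03 in single mice (edgeR adjusted p = 0.283, DESeq2 4.15e-09, limma on cell means 0.0218). Its partner Itgb4 had 578 to 1589 CPM in high cells, against 346 to 1118 CPM in low cells, and Trp63, the master factor of stratified epithelium, had 359 to 651 CPM in high cells, against 219 to 448 CPM in low cells. Both lay higher in each mouse. Col17a1, Itgb4 and Trp63 are from the 4 members that lay higher, and the 2 that lay lower are not named. Krt14 itself had a log2 difference of 0.00 and Krt5 of 0.32. The keratinocyte marker gene Itga6 lay lower in the high cells of KO1 and KO3 and higher in those of WT1 and WT2. Of 8 wound and basal keratin genes 3 lay lower in all 4 mice and 0 higher, beside the same shares. Their median was -0.46, and DESeq2 called 2 lower. Without the 25% of cells highest in suprabasal genes the median was 0.18. Krt6a, a keratin of wounded and hyperproliferative epidermis, had 2192, 4589.5, 2222 and 1137 CPM in the high cells, against 3452, 7007, 4894 and 1385 CPM in the low cells. Krt6b had 853, 3614, 533 and 225 CPM in the high cells, against 1649, 7083, 3554 and 416 CPM in the low cells, with a log2 difference of -1.36 ± 0.35 (edgeR adjusted p = 0.601, DESeq2 0.00049). Krt6a and Krt6b are near-identical copies, so reads may be divided between them with error. Krt15, a basal and stem cell keratin, lay higher in 3 mice and lower in KO1 by its sums. In KO1 it had a count in 88.9% of high and 55.6% of low cells, and limma on cell means called it higher (log2 difference 2.34, adjusted p = 0.033).

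Enzymes of cholesterol synthesis lay lower in the high cells. Of 24 cholesterol and fatty acid genes, 10 lay lower in all 4 mice and 1 higher, beside 9.08% and 8.96% of all genes. Their median log2 difference was -0.93. DESeq2 called 8 lower and 1 higher, beside 1.47% and 2.31% of all genes. Idi1, the isomerase that makes dimethylallyl diphosphate, had 68.7, 212, 71.7 and 24.9 CPM in the high cells, against 170.4, 414, 323 and 86.7 CPM in the low cells. Its log2 difference was -1.56 ± 0.23 (edgeR adjusted p = 0.311, DESeq2 5.26e-07). Fdps, the next enzyme of the pathway, had 47.1 to 204 CPM in high cells, against 79.8 to 332 CPM in low cells. Sqle, the squalene epoxidase gene, and Insig1, the sterol sensor's partner, also lay lower in each mouse, with log2 differences of -0.96 and -1.17. Scd1, which desaturates fatty acids, was the member that lay higher, with 124 to 185 CPM in high cells, against 56.9 to 130.1 CPM in low cells. Idi1 levels overlapped across mice, and KO3 had the highest and WT2 the lowest sums in both states.

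Energy metabolism showed small differences of opposite sign for the nuclear and the mitochondrial genome. Of 56 nuclear genes of oxidative phosphorylation 22 lay lower in all 4 mice and 1 higher, beside 9.08% and 8.96% of all genes. Their median log2 difference was -0.22. DESeq2 called 1 lower and 0 higher, beside 1.47% and 2.31% of all genes. Ndufa4, a respiratory chain subunit gene, had 284, 452, 285 and 184 CPM in the high cells, against 349, 934, 456 and 389.7 CPM in the low cells, the largest difference of the 4 members named by the smallest p. Of 13 mitochondrially encoded genes 7 lay higher and 0 lower, beside the same shares, with a median of 0.31, and DESeq2 called 3 higher. mt-Co1 had 5055, 4094, 3996 and 5511 CPM in the high cells, against 3624, 2904, 3206 and 4011 CPM in the low cells, a log2 difference of 0.44 ± 0.08 (edgeR adjusted p = 0.413). These members also make up the mitochondrial share described above. Of 20 glycolysis genes, the process named in the series' title, 2 lay higher and 2 lower in all 4 mice, close to the shares of all genes. DESeq2 called 0, and the median was -0.04. Pfkp, a phosphofructokinase gene, had 208 to 247 CPM in high cells, against 133 to 183 CPM in low cells, without overlap, and Ldha, lactate dehydrogenase A, had 2981 to 6289 CPM in high cells, against 4302 to 9412 CPM in low cells.

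Cell cycle genes differed in 1 mouse above all. Of 48 G2/M genes, 46 had a negative log2 difference in the fit, with a median of -1.03, yet the median was -1.09 in KO1, 0.06 in KO3, 0.52 in WT1 and -4.00 in WT2. Of the 48, 9 lay lower in all 4 mice and 1 higher, beside 9.08% and 8.96% of all genes, and edgeR and DESeq2 called 0. The median was -0.21 without WT2, and -0.15 with the score freed of its trends on depth and detected genes. Cenpa, the centromeric histone, had 22.1, 112, 66.6 and 10.4 CPM in the high cells, against 52.3, 135, 96.6 and 127 CPM in the low cells. Kif2c, a mitotic kinesin gene, had 0, 28.4, 26.9 and 0.770 CPM in the high cells, against 9.94, 43.4, 29.9 and 38.2 CPM in the low cells. For both genes WT2 had the widest gap in CPM between the states. Of 40 S phase genes 5 lay lower and 1 higher in all 4 mice, beside the same shares of all genes. Their median was -2.01 in WT2 and between -0.01 and 0.32 in the other mice. The S phase median in the fit was -0.37, with 0.19 without WT2 and -0.06 with the score freed of those trends.

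Smaller groups were described in the same way. Of 17 genes of the TGF-beta response 5 lay higher in all 4 mice and 0 lower, beside 8.96% and 9.08% of all genes. Their median log2 difference was 0.73. DESeq2 called 3 higher, beside 2.31% of all genes. Skil, a negative regulator of SMAD signalling, had 133, 116, 156 and 106 CPM in the high cells, against 44.6, 38.03, 48.98 and 75.1 CPM in the low cells, without overlap. Smad3, the signal transducer itself, had 26.3 to 77.5 CPM in high cells, against 6.87 to 22.6 CPM in low cells, also without overlap. Of 7 nuclear long non-coding RNAs 2 lay higher in all 4 mice and 0 lower, beside the same shares. Neat1, the nuclear RNA that builds paraspeckles, had 1879.5, 2565, 2495 and 4801 CPM in the high cells, against 1419, 1256, 1265 and 1959 CPM in the low cells, a log2 difference of 0.93 ± 0.16 (edgeR adjusted p = 0.372, DESeq2 3.75e-06). Of 26 spliceosome genes 7 lay higher and 2 lower in all 4 mice, beside the same shares, with a list median of -0.04. Srsf2 had 161 to 342 CPM in high cells, against 107 to 235 CPM in low cells. Srsf7 went the other way, with 101, 175, 164 and 37.0 CPM in the high cells, against 166, 216, 164 and 99.9 CPM in the low cells. Of 6 hair follicle stem cell genes tested 0 had the same direction in all 4 mice, and the same held for 1 endothelial, 2 immune and 1 adipocyte marker that passed the filter on low counts.

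**Figure D4:**
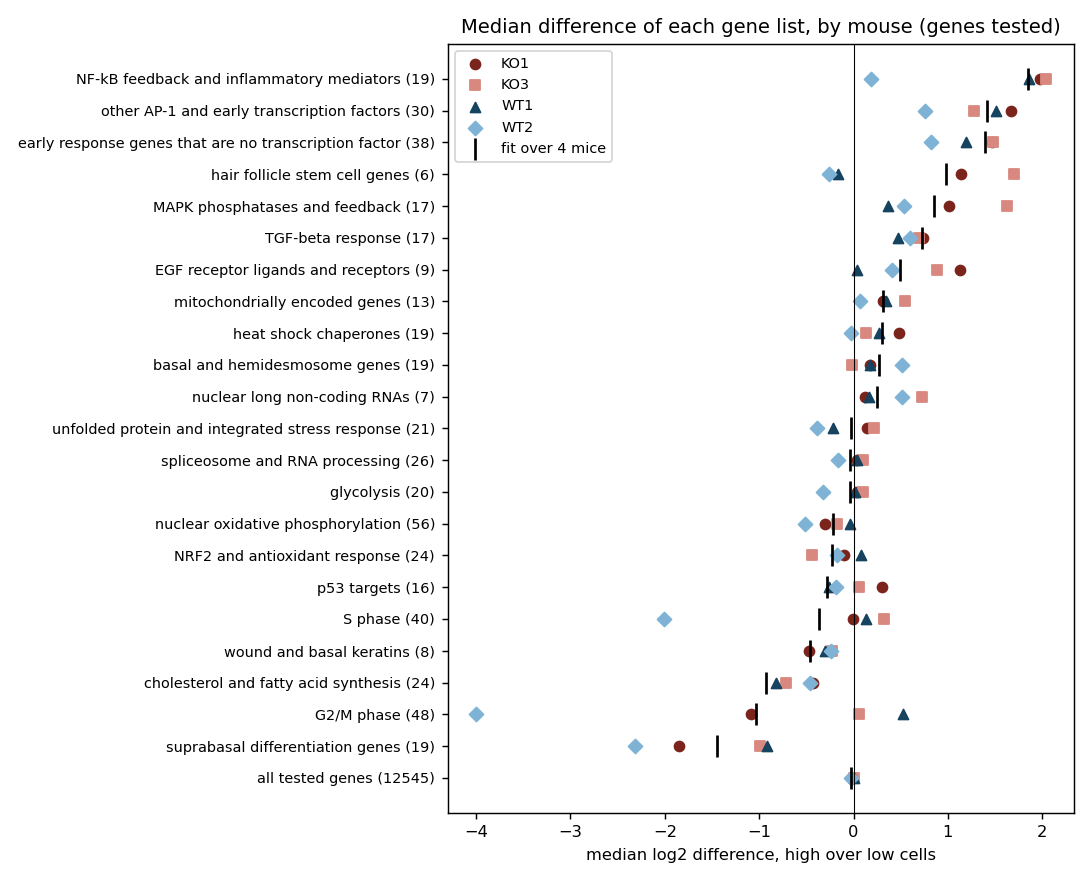
Median log2 difference of high over low cells (horizontal axis) for each gene list with at least 5 tested genes, number of tested genes in brackets; symbols are single mice and black ticks the fit over 4 mice. Both early response lists and the NF-kB list lie to the right of 0 in every mouse, with WT2 nearest to 0, suprabasal and cholesterol lists lie to the left in every mouse, and the G2/M list reaches -4.00 in WT2 only.

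No gene met the naming rule that required a call by edgeR. Under the same rule without the call, chosen after the values were seen, the 12 largest positive differences among genes of at least 20 CPM with 1 direction in all mice were those of Ccl2, Tnfaip3, Gm12216, Tnf, Gem, Cxcl2, Rasgef1b, Klf9, Nr4a1, Rassf10, Nfil3 and Csrnp1. Log2 differences of these ran from 3.21 to 5.92. On cell means limma called only Tnfaip3, Tnf, Nr4a1 and Csrnp1 of them. There Ccl2 had 1.92 (limma adjusted p = 0.222), Gm12216 1.395 (0.102) and Rassf10 2.05 (0.211). Some of these sums also rest on few cells. Ccl2 had a count in 9.1% of high and 9.1% of low cells of WT2, and Gm12216 in 7.7% of high cells of KO3. Rassf10 had a count in 35.3% of high and 41.2% of low cells of WT1. Gem, a small GTPase gene, had 54.4, 46.1, 64 and 56.6 CPM in the high cells, against 5.12, 0, 1.31 and 13.1 CPM in the low cells, and Rassf10 had 103, 91.7, 64.8 and 51.2 CPM in the high cells, against 4.13, 0.820, 21 and 21.3 CPM in the low cells, both without overlap. Nfil3, a basic leucine zipper repressor gene, had 65.3, 24.6, 75.7 and 35.6 CPM in the high cells, against 2.85, 3.70, 3.35 and 11.9 CPM in the low cells. Ccl2, the monocyte chemokine, had 70.6, 348, 87.4 and 50.6 CPM in the high cells, against 4.43, 0, 0 and 35.3 CPM in the low cells, and WT2 differed least. The 12 largest negative differences were those of Tgm3, Otop3, Gm3776, Gsta1, Trex2, Elovl4, Tnfrsf19, Sprr1b, Dsg1b, Kif2c, Pthlh and Abca12, from -6.89 to -2.89. Few cells carry several of these sums: Gm3776 had a count in 23.5% to 69.2% of the low cells of KO1, KO3 and WT1 and in 4.5% of those of WT2, where it lay at 0.09 CPM. On cell means the 12 had smaller log2 differences, from -2.17 to -0.63, with limma adjusted p of 0.0681 or more. Elovl4 makes very long chain fatty acids for ceramides and had 2.23, 118, 11.6 and 0 CPM in the high cells, against 50.4, 205, 117 and 30.9 CPM in the low cells, and Abca12 loads lipids into lamellar granules and had 4.04, 55.7, 23.4 and 0 CPM in the high cells, against 34.1, 170.4, 61.6 and 17.1 CPM in the low cells. Dsg1b, a desmosomal cadherin gene of upper layers, had 0.310, 48.5, 0.550 and 13.7 CPM in the high cells, against 29.9, 147, 36.3 and 22.8 CPM in the low cells. Gsta1 and Gm3776 are similar copies whose counts may be divided with error, and Gsta1 had 2.59, 9.48, 11.5 and 0 CPM in the high cells, against 72.5, 235, 53.2 and 3.28 CPM in the low cells. In WT2 the high cells had 0 CPM of Gsta1, Gm3776, Trex2, Otop3, Elovl4, Sprr1b, Pthlh, Tgm3 and Abca12.

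Over all cells, and not the ends alone, the genes most like the score were named by the mean within-mouse Spearman correlation over 8466 genes with a count in 20% or more of each mouse's cells. Among the 10 highest were Zfp36 (0.74), Btg2 (0.71), Nr4a1 (0.70), Socs3 (0.55), Nfkbia (0.55), Klf6 (0.53), Bhlhe40 (0.53), Csrnp1 (0.52) and Dnajb1 (0.49). Zfp36 stayed between 0.66 and 0.79 in single mice, while Nfkbia had 0.12 in WT2 against 0.66 to 0.77 in the other mice. These values describe cells that share plates and depth, and they carry no p.

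Outside the gene lists, 14 of the 37 genes called by limma on cell means belonged to none of the lists, and those named here were chosen after their values were seen. Slc38a2, an amino acid transporter gene, had 1228, 964, 1091 and 1490.0 CPM in the high cells, against 662, 597, 539 and 792 CPM in the low cells, and Nedd9 had 149, 76.5, 151 and 161 CPM in the high cells, against 29.9, 12.8, 31.2 and 25.8 CPM in the low cells. Both lay higher in each mouse. Lower were Fabp5, the epidermal fatty acid carrier, with 1569, 3544, 1815 and 370.1 CPM in the high cells, against 4497, 4543, 2329.9 and 2418 CPM in the low cells, and Sult2b1, which sulphates cholesterol in the epidermis, with 17.6, 144, 55.6 and 3.37 CPM in the high cells, against 161, 434, 341 and 46.7 CPM in the low cells. Dsg3, a desmosomal cadherin of lower layers, had 363, 442, 377 and 491 CPM in the high cells, against 460.2, 1229.9, 1009.8 and 689 CPM in the low cells, and Gsto1, another glutathione transferase gene, had 1941, 2751, 2147 and 1425 CPM in the high cells, against 3077, 6435, 3176 and 2303 CPM in the low cells.

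The difference of the state between genotypes was also compared. edgeR called 0 of 12545 genes (0%) for the interaction of state and genotype, with 398 at an unadjusted p under 0.05. DESeq2 called 76 of the 12545. The fit had 2 residual degrees of freedom. The smallest edgeR p was that of Sik1, a salt-inducible kinase gene, at 0.0016 (adjusted p = 1.0). Sik1 had 89.3, 67.8, 60.2 and 152 CPM in the high cells of KO1, KO3, WT1 and WT2, against 3.25, 2.94, 20.03 and 95.7 CPM in the low cells. Its log2 difference of high over low cells was 4.41 and 4.13 in the mice labelled Sirt6-/- and 1.54 and 0.67 in those labelled wild type. Levels in the high cells overlapped between the genotypes, and the low cells of KO1 and KO3 had the lower levels. Plate and genotype cannot be told apart in this comparison either. The states were also not equally far apart in the score. High and low cells had median scores of 10.51 and 6.64 in KO1, 10.49 and 5.88 in KO3, and 10.64 and 6.90 in WT1. They had 11.51 and 9.67 in WT2, the narrowest gap. The part of this gap in the interaction was not tested.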

How the data were processed

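Single cells of 4 mice were profiled by Smart-seq2. The deposited values are expected counts per gene and cell, which the authors made with STAR and RSEM on mm10 (GRCm38), per the submitters' processing notes, with no tool version given in the sources used here. Among the nonzero deposited expected counts 21.5% are not whole numbers. The libraries carry no molecular identifiers, so a count stands for reads. Whether counting used strand is not stated, and values of near-identical or overlapping genes are uncertain. Of 54247 gene identifiers, 54156 were given symbols from an annotation of the same build and 91 were not matched.

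Counts of the high and of the low cells of a mouse were summed and rounded. Genes that passed filterByExpr were tested with edgeR 4.0.16 in R 4.3.3 (trimmed mean of M values scaling, quasi-likelihood test, two-sided, Benjamini-Hochberg adjustment over all tested genes outside the score, threshold 0.05), with the mouse as a block, since the high and low cells of a pair come from the same mouse. The standard error is the log2 difference divided by the square root of F. Differences in single mice are of log2(CPM + 1). The genotype was tested as an interaction with the state. DESeq2 1.42.0 and limma 3.58.1 served as alternatives, as did other scalings, filters, cell fractions, scores, counts thinned to 500000 per cell, and each mouse left out. Leaving out the 25% of cells highest in suprabasal or in G2/M genes was added after the data were seen. The edgeR fit with the mouse as a block was tested on simulated counts, and the other steps were not. Other values were computed with Python 3.11.15, numpy 2.4.6, pandas 2.3.3, scipy 1.17.1 and matplotlib 3.10.9.

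The cells, the score and the 27 gene lists were chosen with earlier results of these data known. Genes were named by rule: the 12 largest positive and negative differences among called genes of at least 20 CPM with 1 direction in 4 mice, up to 4 members with the smallest p of each list, the 8 score genes, and the 10 genes most like the score. As 0 genes were called, the first part was applied without the call, to 1421 genes, after the values were seen. Further list members are named for their role or their exception, also after their values were seen. Some genes that the rules would name are not reported here.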

Additional observations from a re-analysis of the deposited data

Results flagged for a closer look

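In 8 of 124 groups of 4 mice that were checked, 1 mouse lay far from the other 3 by Dixon's test, which flags about 1 group in 20 by chance. Zfp36 had a log2 difference of high over low cells of 1.62 in WT2, against 3.02 to 3.14 in the other mice. Skil had 0.49 in WT2, against 1.55 to 1.65. Cox6a1, a cytochrome c oxidase subunit gene, had -1.0 in WT2, against -0.41 to -0.30. Krt6b had -2.73 in WT1, against -0.97 to -0.88. Klk10 had -2.36 in KO3, against -1.51 to -1.37. Mvd, a cholesterol synthesis gene, had -1.75 in KO3, against -1.17 to -1.14. The median score of the high cells was 11.51 in WT2, against 10.49 to 10.64 in the other mice. The median score of all cells was 10.84 in WT2, against 9.09 to 9.18.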

How the results depend on the processing

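edgeR called 0 genes in most alternatives. It called 2 genes higher (Socs3 and Nedd9) with genes under 10 CPM left out, and 0 to 2 with 1 mouse left out, where the 2 (Zfp36 and Btg2) came without WT2. DESeq2 called 290 higher and 184 lower, and limma on cell means 26 and 11. Without the pairing of the states by mouse (no replicate block) edgeR called 0, with 446 genes at an unadjusted p under 0.05, against 872 with it. For the genotype interaction DESeq2 called 76 of 12545 genes. The cause of these differences was not tested. Of 2217 log2 differences of 112 named genes under alternatives, 2195 kept their direction, and 13 genes had a reversal. With the top and bottom 50% of cells Trex2 had 0.21, Sprr1b 0.05, Krt15 -0.00, Krt16 0.00, Fabp4 0.81, Tcf7l2 -0.12, Tcf3 0.07 and Cd68 0.18. With the top and bottom 10% Egfl7 had 1.07. On cell means Dnajb9 had -0.14, Nfatc1 -0.29 and Cd68 0.21. With the score freed of trends on depth and detected genes Nfatc1 had -1.50. Without the cells highest in suprabasal genes Krt16 had 0.57, Tgm1 3.10 and Cd68 0.12, and without those highest in G2/M genes Cd68 had 0.27. Cd68 had 0.23 with limma-voom and 0.41 without the replicate block. With 1 mouse left out H2-Ab1 ranged from -0.31 to 2.82 and Cd68 from -1.36 to 1.13. The suprabasal median stayed negative in 21 settings, from -2.65 to -0.45, and the median of the early transcription factors positive, from 1.01 to 2.07. The S phase median ranged from -1.05 to 0.19, with 0.19 without WT2. On cell means the median was 0.55 for MAP kinase feedback genes, 0.15 for EGF receptor genes and -0.84 for suprabasal genes. With the top and bottom 50% of cells it was 0.75 for early genes that encode no transcription factor and -0.32 for cholesterol genes.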
